A study of Mus musculus with 9 samples.

Results

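The genes described here are the early growth response factors Egr1, Egr2 and Egr3, their corepressors Nab1 and Nab2, the immediate early response genes Ier2, Ier3 and Ier5, and Srf, the gene of serum response factor. They were taken by symbol from the platform annotation, as 9 of 18193 genes with a probe set of their own, and 8 of the 9 reached the level minimum for testing, log2 4 on at least 3 arrays. Transcripts were measured on 9 Affymetrix arrays in the mouse small intestinal epithelial line m-ICcl2, which was derived from fetal C57BL/6 tissue and carries the SV40 large T antigen. The sources used here do not give the promoter that drives the transgene, and all groups are cultures of this single line. The 3 groups of 3 arrays were unstimulated cells, cells given lipopolysaccharide (LPS) at 100 ng/mL for 6 h, and cells given the same LPS for 6 h and then moved to LPS-free medium for a further 90 h. The series design calls this last group, at 96 h from the addition of LPS, tolerant. The labels give no culture time for the unstimulated cells, so 90 h of further culture and earlier LPS cannot be told apart in the tolerant group.

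Immediate-early genes are switched on within minutes of a growth factor, stress or inflammatory signal, without new protein synthesis, and most are switched off again soon after. Serum response factor sits on the CArG box of many of their promoters, with ETS-family partners that are phosphorylated by the ERK kinases. The EGR proteins are zinc-finger transcription factors that bind GC-rich sites, and the NAB proteins bind EGR proteins and repress transcription at those sites, NAB2 being itself a known EGR target that closes a feedback loop. In the intestinal epithelium this system is known for its part in growth, wound repair and the response to bacterial products.

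The promoter windows of 6 of the 9 genes, Egr2, Nab1, Nab2, Ier3, Ier5 and Srf, were found in the RefSeq table of mouse build GRCm38.p6, which gives 250 bases before to 50 bases after each start. They were searched on both strands for the CArG box, the EGR site GCGNGGGCG, the ETS core CCGGAA, the cyclic AMP element TGACGTCA and the kappaB element. Stretches of 4 of these genes are shown because they hold matches to the CArG box, the EGR site or the kappaB element. Each is written 5′ to 3′ on the strand of the gene. Capitals mark the CArG boxes and the EGR site in Srf, the CArG box in Egr2, the EGR sites in Nab1 and the kappaB element in Ier3.
Srf, chr17:46556208-46556292, minus strand, bases -130 to -46 from the start: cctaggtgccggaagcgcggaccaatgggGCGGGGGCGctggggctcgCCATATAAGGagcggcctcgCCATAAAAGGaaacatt
Egr2, chr10:67537484-67537513, plus strand, bases -82 to -53 from the start at 67537566: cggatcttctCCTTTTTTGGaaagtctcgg
Egr2, chr10:67537787-67537816, plus strand, bases -82 to -53 from the start at 67537869: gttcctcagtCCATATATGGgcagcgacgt
Nab1, chr1:52500469-52500598, minus strand, bases -150 to -21 from the start: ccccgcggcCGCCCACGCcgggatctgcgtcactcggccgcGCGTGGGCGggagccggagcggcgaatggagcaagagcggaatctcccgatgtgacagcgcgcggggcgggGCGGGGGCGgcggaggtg
Ier3, chr17:35821603-35821642, plus strand, bases -110 to -71 from the start: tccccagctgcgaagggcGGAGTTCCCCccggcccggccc

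The Srf window held 2 CArG boxes, at bases -82 and -62, with an EGR site at -101 and an ETS core at -122. Over the 5 starts listed for Egr2 there were 2 distinct CArG boxes, and ETS cores lay at -131, -129 and -48 of the start at 67537566, the first overlapping the next. The upstream-most Egr2 start, at 67535499, had overlapping kappaB matches at -117 and -116. Nab1 had EGR sites at -141, -109 and -38, and a kappaB match at -71. Of 32851 windows in the table, 1.63% held a CArG box, 5.55% an EGR site, 14.9% an ETS core, 1.79% the cyclic AMP element and 8.46% a kappaB element. None of these letters was in the Nab2 or Ier5 window. A match describes the sequence and was not tested as a binding site.

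Of the 8 tested genes, Egr1 had the largest rise in tolerant cells. Its log2 intensity was 8.28, 8.58 and 8.35 on the unstimulated arrays, 7.97, 8.21 and 8.56 after 6 h of LPS, and 10.88, 10.91 and 10.78 in tolerant cells. The unstimulated and 6 h values overlapped, whereas the lowest tolerant array lay 2.20 above the highest unstimulated one. Egr1 rose 5.48-fold from unstimulated to tolerant cells, by 2.45 on the log2 scale (SE 0.18, interval 2.04 to 2.87, limma adjusted p = 9.98e-05), and by 2.61 from 6 h to tolerant cells (adjusted p = 8.96e-05). At 6 h it differed from unstimulated cells by -0.16 (95% interval -0.58 to 0.26, adjusted p = 0.632). The rise in tolerant cells was 2.61, 2.33 and 2.43 in replicates 1, 2 and 3. RNA came from whole cultures, so that more transcript per cell and more cells with transcript cannot be told apart for this or any other gene here.

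Egr2, a relative of Egr1 with a like DNA-binding domain, was low throughout. It read 3.34, 3.52 and 3.27 in unstimulated cells, 3.23, 3.40 and 3.38 at 6 h, and 4.54, 4.79 and 5.47 in tolerant cells. All 6 arrays without the 90 h of LPS-free medium lay below log2 4, the level under which these values crowd near a floor, and all 3 tolerant arrays lay above it. Measured against log2 4, Egr2 rose at least 1.91-fold in tolerant cells. On the values as read, low ones included, the log2 difference was 1.56 against unstimulated (limma adjusted p = 0.00213) and 1.60 against 6 h (adjusted p = 0.0028). With lower values raised to log2 4, the difference from unstimulated cells was 0.94 (limma adjusted p = 0.0157). Egr2 was tested only because of its tolerant arrays, so its call cannot count as support for a rise of the family. Its other probe set read 3.70, 4.10 and 5.14 in tolerant cells and 3.37 to 3.59 on the remaining 6 arrays, and did not reach the level minimum.

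Egr3 was below the minimum on all 9 arrays and was not tested. Its brighter probe set read 2.68 to 2.74 on 8 arrays and 3.39 on tolerant replicate 3, which was also the highest array for both Egr2 probe sets. The other Egr3 probe set stayed at 1.53 to 1.54 on every array.

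**Figure D1:**
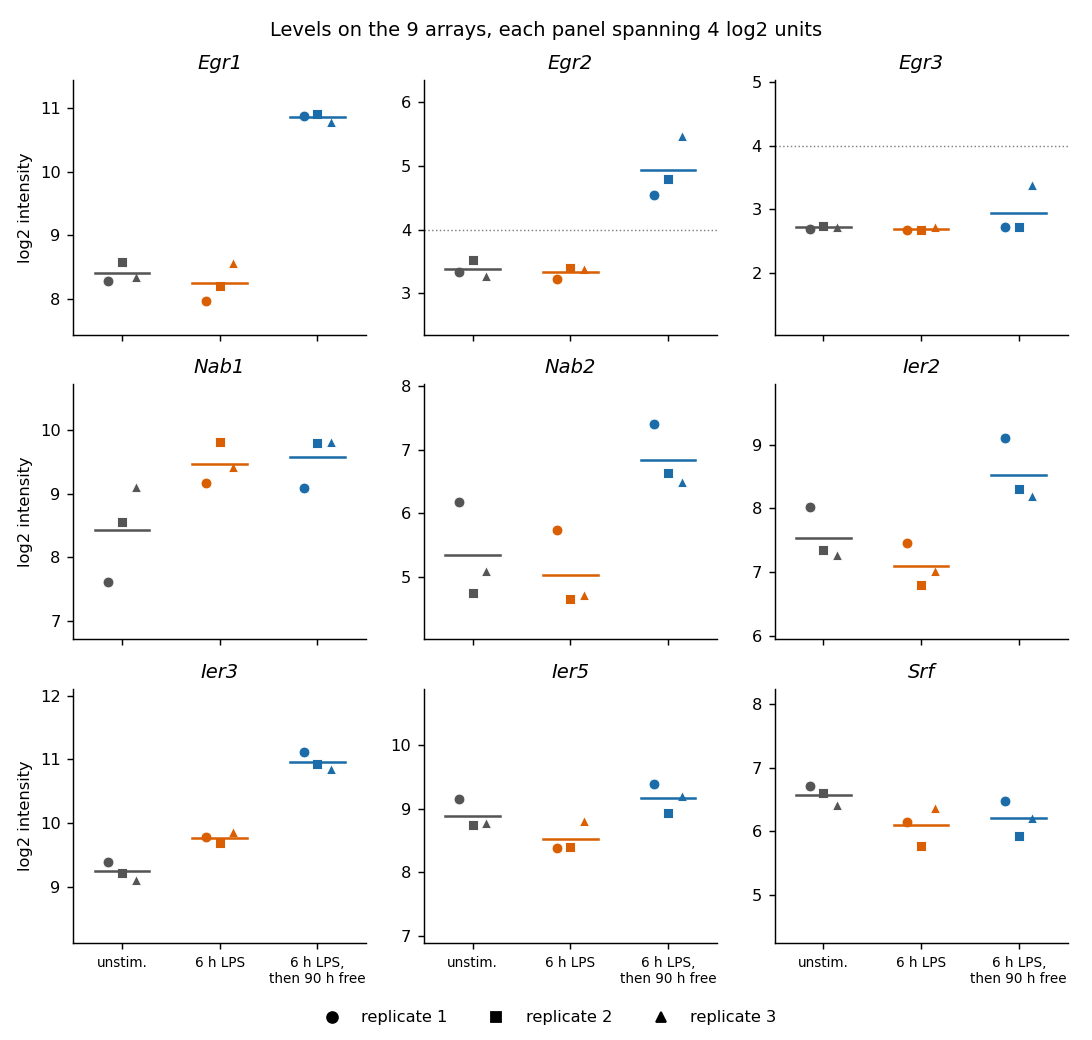
Log2 intensity of each gene (y axis, 4 log2 units per panel) on the 3 arrays of each condition (x axis); symbols give the replicate number, bars the mean of 3, and the dotted line log2 4. The tolerant arrays of Egr1 sit at 10.78 to 10.91, above 7.97 to 8.58 on the other 6, and Ier3 rises in steps from 9.10 to 9.39 through 9.69 to 9.85 to 10.84 to 11.12.

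The corepressor genes followed different courses. Nab2 read 6.18, 4.75 and 5.09 in unstimulated cells, 5.74, 4.66 and 4.72 at 6 h, and 7.40, 6.63 and 6.49 in tolerant cells. Replicate 1 was the highest array of each condition, yet each tolerant array exceeded every array of the other conditions. Nab2 rose by 1.50 in tolerant over unstimulated cells (SE 0.44, limma adjusted p = 0.0342, or 0.000208 when the replicate number entered as a block) and by 1.80 over 6 h (adjusted p = 0.0271). At 6 h it differed from unstimulated cells by -0.30 (interval -1.29 to 0.69, adjusted p = 0.707).

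Nab1 read 7.62, 8.56 and 9.10 in unstimulated cells, 9.17, 9.82 and 9.42 at 6 h, and 9.09, 9.79 and 9.82 in tolerant cells. Every 6 h array exceeded every unstimulated one, with a gap of 0.06, whereas unstimulated and tolerant arrays overlapped narrowly. Nab1 was 1.04 higher at 6 h (SE 0.38, limma adjusted p = 0.155) and 1.14 higher in tolerant cells (adjusted p = 0.0532), and passed in both with the replicate block (adjusted p = 0.0319 and 0.00345). Within replicates 1, 2 and 3 the 6 h difference was 1.55, 1.26 and 0.32. A second Nab1 probe set had less spread, with 5.55, 5.79 and 5.51 in unstimulated cells, 6.82, 6.63 and 6.38 at 6 h, and 6.63, 6.48 and 6.56 in tolerant cells. In a fit of all probe sets its difference was 1.00 at 6 h (limma adjusted p = 0.124, or 0.0375 with the block) and 0.94 in tolerant cells (adjusted p = 0.00584). Tolerant and 6 h cells differed by 0.10 on the first probe set (interval -0.76 to 0.95) and by -0.06 on the second. The remaining Nab1 probe set stayed between 2.25 and 2.76.

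Among the immediate early response genes, Ier3 moved in steps. Ier3, a stress gene linked to cell survival and a known NF-kappaB target, read 9.39, 9.22 and 9.10 in unstimulated cells, 9.78, 9.69 and 9.85 at 6 h, and 11.12, 10.93 and 10.84 in tolerant cells. No arrays of different conditions overlapped. Ier3 rose by 1.72 from unstimulated to tolerant cells (SE 0.15, interval 1.38 to 2.07, limma adjusted p = 0.000202) and by 1.19 from 6 h to tolerant cells (adjusted p = 0.00156). The difference of 0.53 at 6 h did not pass (interval 0.19 to 0.88, adjusted p = 0.121), and passed with the block (adjusted p = 0.0333). The tolerant rise was 1.72, 1.71 and 1.74 in replicates 1, 2 and 3.

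Ier2, which encodes a nuclear regulator of transcription, read 8.02, 7.34 and 7.27 in unstimulated cells, 7.46, 6.80 and 7.01 at 6 h, and 9.10, 8.30 and 8.20 in tolerant cells. Replicate 1 was again the highest array in each condition, and the tolerant arrays stood above the rest by 0.18 or more. Ier2 rose by 0.99 in tolerant over unstimulated cells (SE 0.31, limma adjusted p = 0.0429) and by 1.45 over 6 h (adjusted p = 0.0159). At 6 h it was lower in all 3 replicates, by -0.56, -0.54 and -0.26. That difference of -0.45 did not pass (adjusted p = 0.405) and passed with the block (adjusted p = 0.0426).

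Ier5, whose protein acts with the phosphatase PP2A on heat-shock factor, had 3 probe sets that differed in their change. The brightest, used for the gene, read 9.15, 8.74 and 8.78 in unstimulated cells, 8.38, 8.39 and 8.80 at 6 h, and 9.39, 8.93 and 9.20 in tolerant cells. Its tolerant and unstimulated arrays overlapped, with a difference of 0.28 (interval -0.17 to 0.74, limma adjusted p = 0.343). Against 6 h the tolerant arrays were 0.65 higher (adjusted p = 0.0685, or 0.0191 with the block). Another probe set, by contrast, read 4.73, 4.48 and 4.46, then 5.08, 4.87 and 4.81, then 6.31, 6.30 and 6.50, with no overlap between any conditions. In the fit of all probe sets it rose by 1.81 in tolerant over unstimulated cells (limma adjusted p = 0.000306) and by 1.45 over 6 h (adjusted p = 0.00107). The remaining probe set had 6.23, 6.24 and 7.28 in replicate 1 and at most 4.94 on the other 6. Whether Ier5 as a gene rose in tolerant cells thus depends on the probe set, and the sources used here do not say which part of the transcript each one reads.

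**Figure D2:**
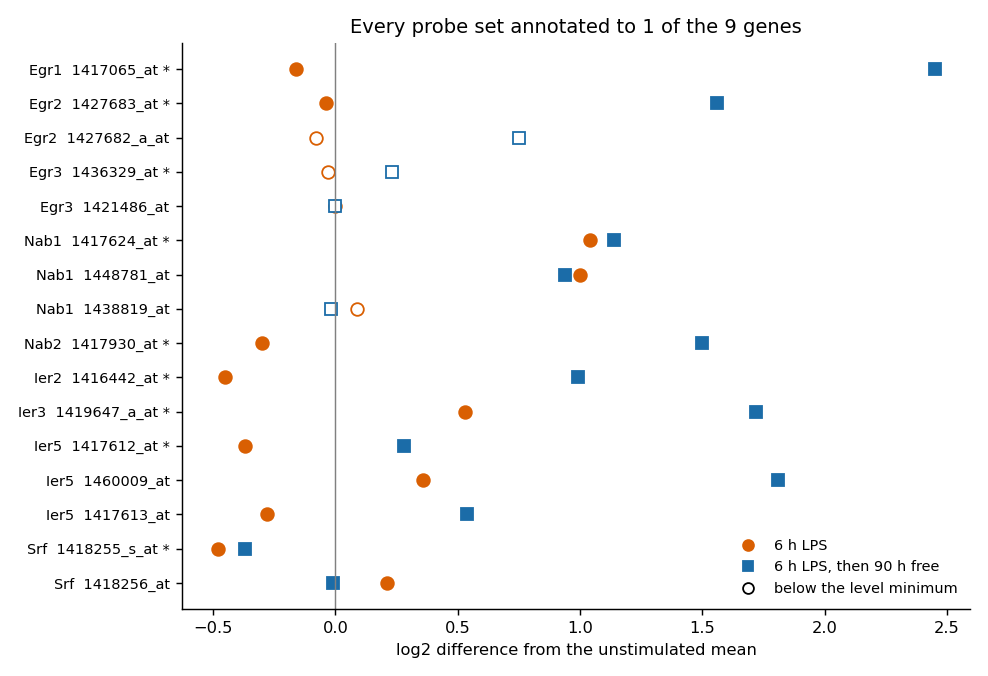
Log2 difference from the unstimulated mean (x axis) for each of the 16 probe sets (y axis) at 6 h of LPS and in tolerant cells; an asterisk marks the probe set used for the gene, and open symbols lay below the level minimum. The probe sets of Ier5 spread from 0.28 to 1.81 in tolerant cells, whereas those of Nab1 above the minimum lie at 0.94 and 1.14.

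Srf itself was not called in any comparison. It read 6.71, 6.60 and 6.41 in unstimulated cells, 6.15, 5.77 and 6.37 at 6 h, and 6.48, 5.92 and 6.21 in tolerant cells. Every 6 h array lay below every unstimulated one, with a gap of 0.04, whereas unstimulated and tolerant arrays overlapped narrowly. The difference was -0.48 at 6 h (interval -0.96 to 0.00, limma adjusted p = 0.218) and -0.37 in tolerant cells (interval -0.85 to 0.11, adjusted p = 0.234), neither past the test with or without the block. A second Srf probe set read 4.15 to 4.16 on every array of replicates 2 and 3. On the replicate 1 arrays it read 4.56 in unstimulated cells, 5.17 at 6 h and 4.53 in tolerant cells. Its difference of 0.21 at 6 h thus rests on replicate 1, and that of -0.01 in tolerant cells says little about Srf. The intervals of the first probe set are the ones to read. These intervals reach a fall of 0.96, so the data do not show that Srf was level.

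In all, 5 of the 8 tested members rose in tolerant over unstimulated cells, Egr1, Egr2, Nab2, Ier2 and Ier3, and none fell. Over all 9431 tested genes 14.0% were higher and 12.2% lower. Egr2 had to differ to be tested. The same 5 rose over 6 h, where 7.10% of genes were higher and 6.02% lower. These comparisons share the tolerant arrays. With the replicate block 6 members rose in each, with Nab1 added against unstimulated cells (22.7% of genes higher and 25.9% lower) and Ier5 added against 6 h (16.0% and 15.7%). The calls of Ier2 and Nab2 and the missing call of Nab1 depended on single arrays. The count against unstimulated cells was 3 (Egr1, Egr2 and Ier3) without unstimulated replicate 2, without tolerant replicate 2 or without tolerant replicate 3. Without unstimulated replicate 3 or tolerant replicate 1 Nab2 and Ier2 were lost as well, and the count was 4 because Nab1 was called (adjusted p = 0.0244 and 0.0426). Without 6 h LPS replicate 2 or 6 h LPS replicate 3 Ier2 alone was lost. The count against 6 h was 3, the same genes, without 6 h LPS replicate 2 or 6 h LPS replicate 3. From replicates 2 and 3 alone, 6 members rose over unstimulated cells, where 1749 of all tested genes were higher and 1859 lower. Over 6 h, 5 members rose in that fit, where 1055 genes were higher and 1071 lower.

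At 6 h of LPS limma called 0 of the 8 members, with 0.0636% of all genes called higher and 0% lower. Unadjusted, 2 members, Nab1 and Ier3, and 2163 genes had a p below 0.05. With the replicate block Nab1 and Ier3 were called higher and Ier2 lower, where 11.6% of genes were higher and 12.5% lower. The median log2 difference of all tested genes at 6 h was -0.11, so a small fall there is to be read against that shift.

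**Figure D3:**
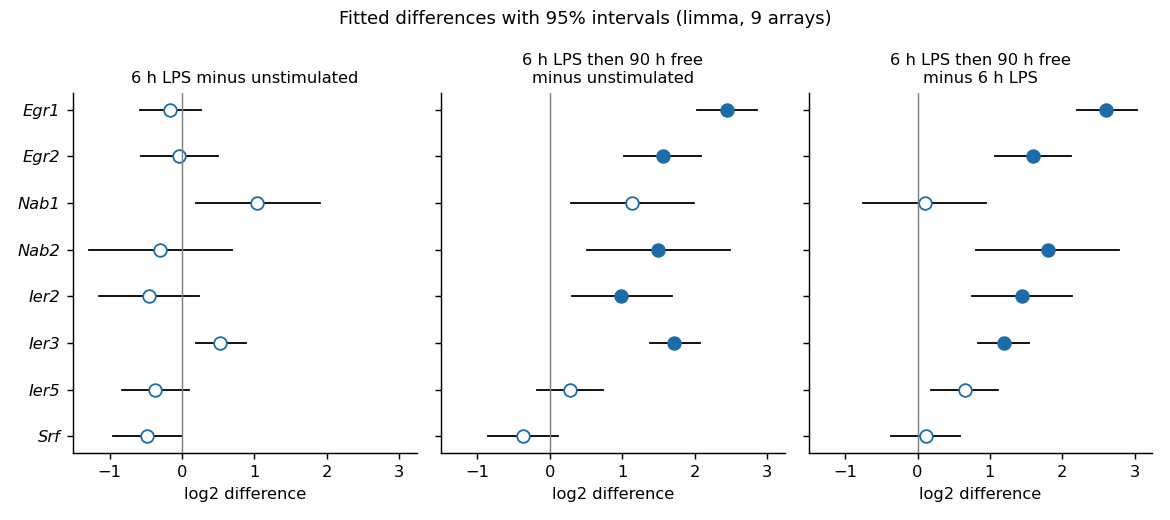
Log2 difference (x axis) of the 8 tested genes (y axis) in the 3 comparisons, with 95% intervals from limma over 9 arrays; filled points passed at an adjusted p below 0.05. No point is filled at 6 h, and Egr1 at 2.45 and 2.61 is the farthest from 0 in both comparisons with tolerant cells.

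Replicate 1 stood apart in the spread of some members but not others. Averaged over conditions, its deviation from the condition mean was 0.70 for Nab2, 0.47 for Ier2 and -0.53 for Nab1, against -0.13 for Egr1 and 0.10 for Ier3. On the same 3 arrays the 3′ control for beta-actin exceeded its 5′ control by 0.40 to 0.72 in log2, against 1.02 to 1.38 on the other 6, and ribosomal RNA (18S, 5′ control) lay at 7.27 to 10.24 against 3.38 to 5.76. The part of RNA quality in these deviations was not tested. Of 10 epithelial markers, Krt8, Krt18, Vil1 and Cdh17 were above log2 4 on every array, Epcam on the tolerant arrays only, and Cdh1, Krt19, Cldn3, Cldn7 and Cdx2 on none. Their summed linear intensity was 12900 to 18000 in unstimulated, 10800 to 17100 in 6 h and 15300 to 21400 in tolerant cells. Ptprc, Itgam, Adgre1, Lyz2 and Cd3e of 7 leukocyte markers, all but Vim of 8 fibroblast markers and all 5 endothelial markers lay below log2 4 on every array. The summed leukocyte level, carried by Csf1r and Cd14, was 1310 to 2560, 869 to 2450 and 509 to 943 in the same order of conditions. Single markers were called in tolerant over unstimulated cells. Epcam, which passed the filter through the tolerant arrays alone, rose at least 3.11-fold. The p-value for Epcam (limma adjusted p = 0.000154) belongs to the log2 difference of 2.60 on the values as read. Cdh17 rose 4.13-fold (limma adjusted p = 0.0038) and Krt18 by 0.66 on the log2 scale (adjusted p = 0.0479), and Csf1r fell by 1.95 on that scale (adjusted p = 0.0232). With single arrays left out, Krt18 kept that call only without unstimulated replicate 1 or 6 h LPS replicate 1. Csf1r lost its call without unstimulated replicate 2 or 3 or tolerant replicate 1. The part of these cell markers in the members' changes was not tested.

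Other immediate-early genes were counted from a list of 37, of which 30 reached the level minimum and 7 did not. In tolerant cells 20 of the 30 rose over unstimulated cells and 1 fell, where 14.0% of all tested genes were higher and 12.2% lower. The list median was 1.18 against -0.07 over all tested genes. Fos, the AP-1 subunit gene, rose by 3.38, from a mean of 5.54 to 8.92 (limma adjusted p = 0.00193). Ccn2, a matricellular growth factor gene, rose by 2.52 and Maff, a small MAF factor gene, by 2.44. Dusp5, the gene of a nuclear ERK phosphatase, rose by 2.39, with 1 of 3 unstimulated arrays below log2 4. The gene that fell was Klf2, by at least 2.41-fold. Over 6 h, 20 rose and 1 fell, where 7.10% of all tested genes were higher and 6.02% lower. The median was 1.34, and Fos at 3.53 and Ccn2 at 3.17 led. That fall was again Klf2, at least 1.37-fold, and its call was lost without tolerant replicate 1 or tolerant replicate 3. At 6 h over unstimulated cells none of the 30 passed, with a median of -0.20, where 0.0636% of all tested genes were higher and 0% lower. With the block 2 were higher and 5 lower, where 11.6% and 12.5% of all tested genes were. These block counts say nothing particular about the list. The rises over unstimulated cells numbered 22 from replicates 2 and 3 alone, where 1749 of 9431 tested genes were higher. They numbered 15 to 21 with 1 array left out, where 1400 to 2908 genes were called in either direction. Dusp5 lost its call without unstimulated replicate 3, tolerant replicate 1 or tolerant replicate 2.

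**Figure D4:**
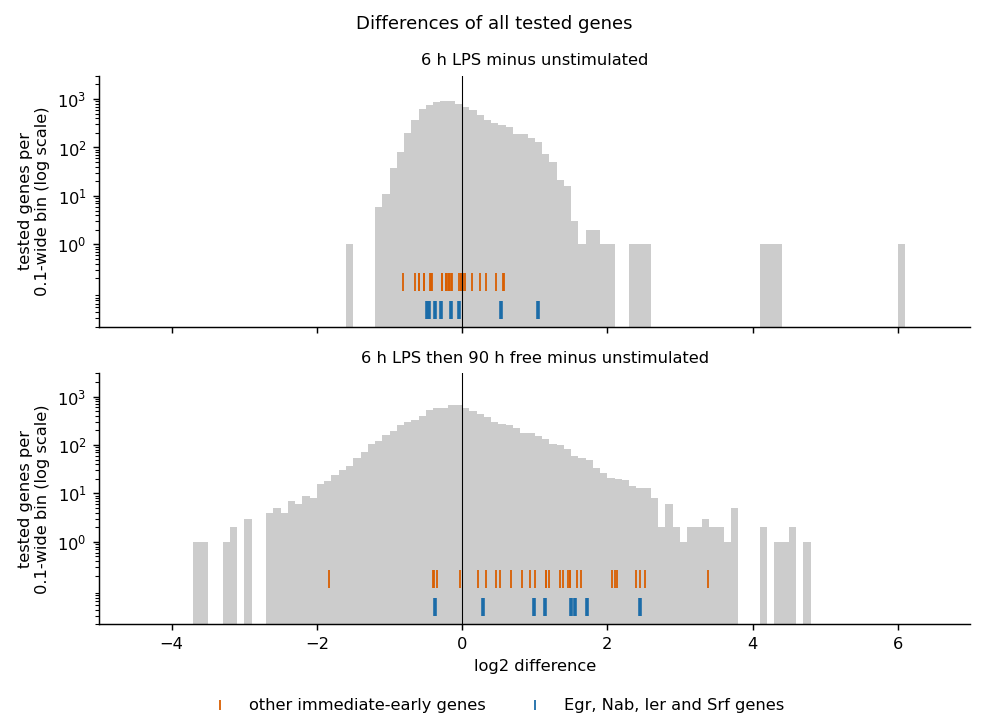
Histograms of the log2 difference (x axis) of 9431 tested genes, with the number per bin on a log y axis, at 6 h of LPS and in tolerant cells against unstimulated cells; ticks mark the 8 tested Egr, Nab, Ier and Srf genes and 30 other immediate-early genes. At 6 h the ticks lie around the bulk of genes, and in tolerant cells most lie to its right, up to 2.45 for Egr1 and 3.38 for Fos.

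Of 5 listed cofactor genes of Srf 4 were tested, too few to read against the shares over all genes. Elk4, the gene of an ETS partner, rose by 0.79 in tolerant over unstimulated cells (limma adjusted p = 0.00677) as the single call, where 14.0% of all tested genes were higher. Elk3 was also called with the replicate block (22.7% of genes higher), and both were called with it over 6 h (16.0%). Of 16 cytoskeletal genes known as SRF targets, such as actins, calponins and tropomyosins, 11 were tested. Fhl2, the gene of a LIM-domain cofactor, rose by 2.61 (adjusted p = 9.53e-05) and no other was called, with a list median of -0.10, where 14.0% of all tested genes were higher. With the block Cald1 was also higher and Flna lower (22.7% of all tested genes higher and 25.9% lower). Over 6 h, Fhl2 rose by 2.62, also as the single call (7.10% of all tested genes higher), and with the block 3 genes were higher (16.0%).

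Of 14 genes reported elsewhere as EGR1 targets, 11 had a probe set here and 9 were tested. In tolerant over unstimulated cells 2 of the 9 rose and 1 fell, where 14.0% of all tested genes were higher and 12.2% lower, so the counts say nothing particular about these genes. F3, the tissue factor gene, rose by 1.47 (limma adjusted p = 0.0105) and Vegfa, a blood-vessel growth factor gene, by 0.92 (adjusted p = 0.00722), whereas Fn1, the fibronectin gene, fell by 0.95 (adjusted p = 0.0131). The call of Fn1 was lost without tolerant replicate 2 or tolerant replicate 3. With the block Tgfb1 and Pdgfb were also higher and Cdkn1a lower (22.7% of all tested genes higher and 25.9% lower). Over 6 h, F3 rose by 1.66, Vegfa rose by 0.67 and Fn1 fell by 0.83. Of all tested genes 7.10% were higher there and 6.02% lower. From replicates 2 and 3 alone 5 of the list rose over 6 h and 1 fell, where 1055 and 1071 of 9431 tested genes did. In the comparison with 6 h, calls of Vegfa or Fn1 were lost when any 1 of the 9 arrays was left out, whereas F3 kept its call.

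Likeness of course was measured as the root mean square difference over the 9 arrays, in log2 units, after each gene was centred on its own mean. It describes these arrays, which share the tolerant rise, and carries no test. Among the other 9423 tested genes the closest to Egr1 were S100a3 at 0.18, Hilpda at 0.19 and Ddit3 at 0.20, where the median gene lay at 1.26. S100a3 averaged 2.54 in both unstimulated and 6 h cells, below log2 4, and 5.21 in tolerant cells. It passed the filter through the tolerant arrays alone, so its distance to Egr1 and its place are not measured. Ier2 was most closely followed by Rras at 0.11, and by Spry1 and Egln3 at 0.14 each (median 0.78). Ier3 was closest to Slc25a37 at 0.11, Gpr137b at 0.15 and Parp8 at 0.16 (median 0.82). Srf lay near many genes, with Ints11 and Mms19 at 0.08 and Polr2i at 0.09 (median 0.46). Among the members the closest pairs were Nab2 with Ier2 and Ier5 with Srf, both at 0.31, and the farthest was Egr1 with Srf at 1.28. Genes that changed little lie close on this measure whatever their sign. In tolerant over unstimulated cells Ier5 differed by 0.28 and Srf by -0.37. Nab2 and Ier2 had a high replicate 1 in common, with deviations of 0.70 and 0.47, as well as the tolerant rise.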

How the data were processed

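The deposited values were probe-set intensity on a linear scale. Per the submitters' processing notes the authors used GCRMA, with its version not given in the sources used here. This method removes a sequence-based background and normalizes between arrays, so that low values crowd near a floor. The lowest value was 2.22. Values were turned into log2 here without a pseudocount. Array data have no read depth, and 3 arrays per condition limit the precision. Of 45101 probe sets, 34945 carried 1 symbol in the platform annotation, 932 several and 9160 none, and 64 were controls. The probe set with the highest mean over 9 arrays stood for a gene. Of 18193 genes, 9431 (51.8%) reached log2 4 on at least 3 arrays and were tested. A fold against a group wholly below log2 4 is given as a bound against log2 4.

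Groups came from the titles. In R 4.3.3, limma 3.58.1 fitted 1 mean per condition over all 9 arrays, with 6 residual degrees of freedom, eBayes and two-sided tests, adjusted by Benjamini-Hochberg over all tested genes within each of 3 comparisons at 0.05. The labels call replicates biological without saying what they share, so p-values measure the spread between these arrays. Each condition has replicates numbered 1, 2 and 3. Deviations from condition means correlated across genes at 0.157 to 0.844 for same-numbered arrays. The replicate 1 arrays correlated with each other at 0.737 to 0.844, and with the others at -0.743 to -0.375. Among replicates 2 and 3, same-numbered arrays correlated at 0.157 to 0.677 and arrays of different number at 0.214 to 0.731. Same-numbered ones were higher between 6 h and tolerant arrays (0.677 and 0.434 against 0.555 and 0.214). They were also higher between unstimulated and tolerant arrays (0.569 and 0.651 against 0.502 and 0.62). Between unstimulated and 6 h arrays they were lower (0.411 and 0.157 against 0.497 and 0.731). Deviations sum to 0 within a condition, so these correlations constrain each other. The numbers thus set replicate 1 apart, and whether they mark pairs beyond that is not settled. Differences given by replicate number are descriptive. Steps were tested on simulated data. Members, lists, motifs, tests, alternatives and the naming rule (members, then at most 4 called genes of each list by size, then the 3 genes most like Egr1, Ier2, Ier3 and Srf) were chosen with earlier results of these data known. Genes called only with the block, and the Ier5 probe sets named, were picked after their values were seen, and the fit of all probe sets was added after seeing the data. Promoters were searched in Python 3.11.15.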

Additional observations from a re-analysis of the deposited data

How the results depend on the processing

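Over 21 alternatives, Egr1 and Ier3 kept their calls in both comparisons with tolerant cells in all 21. Egr2 kept its calls in the 20 in which it was tested, and was not tested with the minimum at log2 5. Except with no filter, it was tested only through its tolerant arrays, so its kept calls are no support for its rise. Nab2 lost its call in 6 against unstimulated cells (adjusted p up to 0.12) and in 6 against 6 h, and Ier2 in 9 (up to 0.133) and 3. Nab1 gained a call against unstimulated cells in 7 of 21. With no filter on low values, 3 members were higher in tolerant cells against unstimulated, where 1014 of 18193 genes were higher and 897 lower. In that fit Nab2 and Ier2 lost their calls in both comparisons with tolerant cells. At 6 h over unstimulated cells it called 37 genes and no member. With the replicate block, 3 members were called at 6 h, and 2267, 4586 and 2985 genes in the 3 comparisons. With a block of replicate 1 against the others these were 3 members, and 2743, 4809 and 3192 genes. Replicates 2 and 3 alone gave 2126 genes against 6 h. With single arrays left out, 5 to 696 genes were called at 6 h, the most without 6 h LPS replicate 3. Such fits gave 1400 to 2908 genes and 3 to 5 members for tolerant against unstimulated, and 677 to 1282 genes and 3 to 5 members against 6 h. Beyond the calls given beside the values, the block changed no member's call. Signs that turned belonged to differences that did not pass. With the median of probe sets these were Ier5 at 6 h (0.20) and Nab1 (-0.06) and Srf (-0.05) in tolerant against 6 h. With quantile normalization it was Egr2 at 6 h (0.02), and from replicates 2 and 3 Srf against 6 h (0.00). With single arrays left out, ranges that crossed 0 were -0.65 to 0.12 for Nab2 and -0.09 to 0.03 for Egr2 at 6 h, and -0.06 to 0.33 for Nab1 and -0.06 to 0.25 for Srf against 6 h. Causes were not tested.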

Other observations

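Genes of the ERK kinase cascade, which acts on the ETS partners of serum response factor, were covered in part. Of 15 listed genes 9 had a probe set here and all 9 were tested. Over unstimulated cells 2 rose and 2 fell, where 14.0% of all tested genes were higher and 12.2% lower, and over 6 h 1 rose and 1 fell (7.10% and 6.02%), counts that do not set the cascade apart. Against unstimulated cells Egfr, the gene of the epidermal growth factor receptor, rose by 1.23 (limma adjusted p = 0.00327) and Braf, a kinase at the head of the cascade, by 1.19 (adjusted p = 0.0238). Mknk1 fell by 1.04 and Mknk2 fell by 0.68 (adjusted p = 0.035 and 0.0466), both genes of kinases that ERK activates. Against 6 h, Egfr rose by 0.96 and Nras fell by 0.63. None of the 9 was called at 6 h over unstimulated cells, and Rps6ka3 was higher with the replicate block (11.6% of all tested genes higher). With the block 4 were higher and 3 lower in tolerant over unstimulated cells (22.7% and 25.9% of all tested genes), and 2 and 2 over 6 h (16.0% and 15.7%). Egfr kept its call over unstimulated cells with each array left out, and lost it over 6 h without any 1 of the tolerant arrays. Over unstimulated cells, Braf lost its call without unstimulated replicate 1 or 2 or tolerant replicate 2 or 3. Mknk1 lost it without any 1 tolerant array, and Mknk2 without any 1 of the unstimulated or tolerant arrays or 6 h LPS replicate 2. Nras lost its call over 6 h without any 1 tolerant array or 6 h LPS replicate 2.

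The NAB proteins are known to recruit the NuRD chromatin-remodelling complex. All 9 listed were tested, and Hdac1, a histone deacetylase gene, fell by 0.83 in tolerant over unstimulated cells (limma adjusted p = 0.0236) as the single call, against a list median of -0.10. That is 1 of 9, where 12.2% of all tested genes were lower. That call was lost without any 1 of the unstimulated arrays or tolerant replicate 1. Without the block the list had no call in either other comparison. With the block 1 was higher and 3 lower in tolerant over unstimulated cells (22.7% and 25.9% of all tested genes). At 6 h over unstimulated cells 2 were higher with it (Hdac2 and Gatad2b) and 1 lower (Gatad2a), where 11.6% and 12.5% of all tested genes were. In tolerant cells over 6 h 2 were lower with it (Mbd3 and Hdac1), where 15.7% of all tested genes were.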
